A study of Mus musculus with 12 samples.

Results

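GT1-7 cells are an immortalised mouse line of hypothalamic neurons that make gonadotropin-releasing hormone (GnRH), raised from tumours in which a viral T antigen was driven by the GnRH promoter. RNA sequencing was compared between 4 samples that received an siRNA against Klf4 and 4 Vehicle samples, 8 of the 12 samples of the series. The Klf4 siRNA was delivered with lipofectamine 2000 in Opti-MEM I over 24 h. Vehicle cells were deprived of serum for 6 h and then spent 1 h in Ca2+-free DMEM, and no transfection was described for them. The other 4 samples, Scramble, received a control siRNA in the same way as the Klf4 siRNA and were used here to see whether a difference from Vehicle was also present in them. All groups were grown beforehand in DMEM with 10% fetal bovine serum. The siRNA, the lipid, the transfection medium and time, and the starvation of Vehicle cannot be told apart in the comparison with Vehicle, and 1 Klf4 siRNA group leaves the lowered Klf4 and any further action of that siRNA joined.

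Klf4 encodes a Krüppel-like zinc finger transcription factor that binds GC-rich and CACCC-type DNA, can activate or repress its targets, and is best known from pluripotent reprogramming, epithelial differentiation and vascular smooth muscle. An siRNA guides the RNA-induced silencing complex to a matching mRNA, which is then cut. GnRH neurons release a peptide hormone in pulses that drive the pituitary gonadotrophs, and calcium entry is part of both their firing and their secretion.

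The Klf4 siRNA and Vehicle table listed 12701 genes, of which 12684 passed the filter on low counts. Levels are read counts relative to library size (CPM), scaled over the 12 samples. Whether the samples within a group came from different cultures is not stated, so the p-values measure the spread between these samples, which may be technical. Each Klf4 siRNA library held 30040043 to 33479951 counts, and each Vehicle library 28450376 to 35558952. Principal component 1, with 49.9% of the variance, separated Vehicle from both transfected groups, and the second, with 25%, separated Klf4 siRNA from Scramble. The gene model Gm10800, whose role is not known here, held 25825, 687, 259 and 10572 counts in Klf4 siRNA samples 1 to 4 and between 78 and 167 in each Vehicle sample. Its log2 fold change against Vehicle was 6.27 (SE 1.20, edgeR adjusted p = 9.62e-04), a larger rise than that of any gene described below. Klf4 siRNA samples 1 and 4 therefore stood apart from 2 and 3 for that gene, and counts below are given without them where they matter. Of the neuronal markers, 8 of 15 were tested, and Stmn2, Snap25, Gap43, Dcx, Elavl4, Nefl and Rbfox3 were not. Gnrh1, the hormone gene that marks the line, was among the well expressed genes. Of markers of other cells, 3 of 8 for astrocytes, 4 of 9 for the oligodendrocyte lineage, 3 of 10 for microglia, 2 of 8 for endothelium and 6 of 9 for fibroblasts and pericytes were tested. Defining markers such as Gfap, Aqp4, Sox10, Cx3cr1, Ptprc, Pecam1 and Cdh5 were not among the tested genes. In a bulk sample, fewer cells of a type and less RNA per cell cannot be told apart.

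Klf4 itself (mm10 chromosome 4, bases 55527143 to 55532466) was read at low counts in every sample. The Vehicle samples held 5.57, 4.27, 4.71 and 4.58 CPM, the Scramble samples 4.62, 4.45, 3.55 and 3.43 CPM and the Klf4 siRNA samples 1.34, 0.927, 1.8 and 1.46 CPM. Every Klf4 siRNA sample lay below every sample of both other groups. With the siRNA, the Klf4 level was 29.3% of Vehicle (95% interval 22.1 to 38.8), or -1.77 in log2 units with an SE of 0.19 and an edgeR adjusted p of 8.57e-06. A two-sided exact permutation test over the samples gave p = 0.0286, the smallest that 70 splits of 4 against 4 can give. Scramble stood -0.25 from Vehicle on the log2 scale (SE 0.14, edgeR adjusted p = 0.154), and its 95% interval reached past 0.5 below Vehicle.

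Between Klf4 siRNA and Vehicle, 5755 of 12684 tested genes passed an edgeR quasi-likelihood test at a Benjamini-Hochberg adjusted p under 0.05, which is 45.4% of them. Of these, 3054 (24.1%) were higher with the siRNA and 2701 (21.3%) were lower. A change of at least 2-fold was reached by 334 called genes upward and 334 downward, 2.63% of tested genes each. The median size of a called change was 0.39 on the log2 scale. The groups did not overlap for 5207 genes (41.1%). Scramble differed from the same Vehicle samples at 6734 of 12546 tested genes (53.7%), with 3409 higher (27.2%) and 3325 lower (26.5%). Klf4 siRNA and Scramble differed at 4561 of 12663 tested genes (36%), with 2345 higher (18.5%) and 2216 lower (17.5%). The authors' deposited table for Klf4 siRNA and Vehicle had 5682 genes at a false discovery rate under 0.05, of which 5508 were called here in the same direction. Both comparisons with Vehicle share its 4 samples, so their values are set side by side below and no likeness between them is read as a result.

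**Figure D1:**
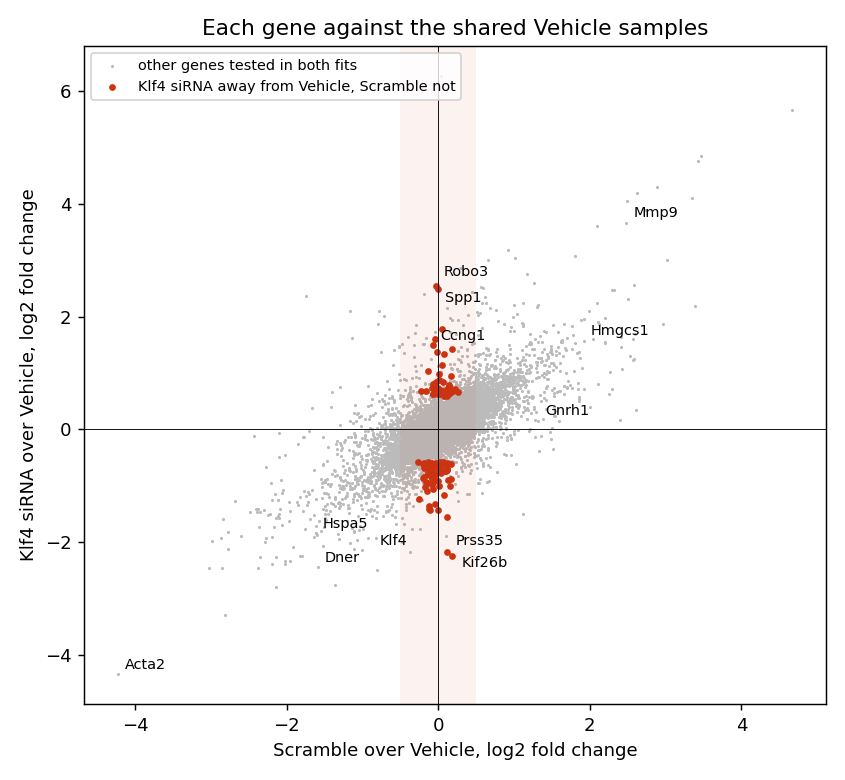
Log2 fold change against Vehicle of each gene tested in both comparisons, Scramble on the horizontal axis and Klf4 siRNA on the vertical axis. Red points are the 118 genes where Klf4 siRNA lay at least 1.5-fold from Vehicle and Scramble lay with Vehicle, and the shaded strip is the band of 0.5 on either side of 0. Acta2 is near the lower left corner for both groups, while Spp1, Robo3, Kif26b and Prss35 sit in the strip far from the horizontal line.

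Genes that differed from Vehicle with the Klf4 siRNA while Scramble did not were picked by their values. A gene was taken when Klf4 siRNA passed against Vehicle with a change of at least 1.5-fold, Scramble did not pass, and the 95% interval of the Scramble log2 fold change lay within 0.5 of 0. Of 12544 genes tested in both comparisons, 875 rose at least 1.5-fold (6.98%) and 717 fell (5.72%). Scramble did not pass for 337 of them, and for 118 (0.941%) its interval also lay inside the band. Those 118 comprised 48 higher genes (0.383%) and 70 lower genes (0.558%). Since these values chose the genes, they are given as a description without a test. The rising gene just outside the fold limit was Trip6 at 0.58 on the log2 scale, and the first inside was Xylb at 0.60. Among falls, Col4a1 at -0.59 was just inside and Prkci at -0.58 just outside. Fah was just inside the band, with a Scramble interval from -0.46 to 0.50, and Colec11 just outside, from -0.42 to 0.51. Without Klf4 siRNA samples 1 and 4, the rule gave 43 higher and 67 lower genes.

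In 47 of the 48 higher genes all Klf4 siRNA samples lay above both other groups, and in 60 of the 70 lower genes all lay below both. The rule itself favours such genes, so these counts only describe the selection. Over all tested genes, Klf4 siRNA and Vehicle did not overlap for 41.1%, and the share for both groups was not counted. Every one of the 48 and 67 of the 70 were also called between Klf4 siRNA and Scramble, a comparison that shares the Klf4 siRNA samples with the rule. The median size of change was 0.73 on the log2 scale, and 10 rises and 15 falls reached 2-fold. All were annotated as protein coding. The higher genes lay on 16 chromosomes and the lower genes on 20. Median exon length was 4276 bases for the higher genes and 6310 for the lower ones, beside 4492 over all tested genes. Median GC content was 50.8% in both directions and 49.9% over all tested genes. By gene list, the higher genes held 9 interferon-stimulated genes, 4 p53 targets, 2 matrix genes and 1 gene each of antigen presentation, axon guidance and secretory granules. The lower genes held 4 axon guidance genes, 3 matrix genes, and 1 each of the Notch, bone morphogenetic protein, calcium and actin lists. The other members were on none of these lists.

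Interferons act through transcription factors that bind the interferon-stimulated response element (ISRE) in the promoters of target genes, and p53 binds pairs of a 10-base half-site near its targets. Promoters of 4 higher genes are shown because they hold such letters. They run from 250 bases before to 50 bases after the start in RefSeq's GRCm38.p6 annotation, written 5′ to 3′ along the gene's own strand. Capitals mark the ISRE core (GAAA, any 2 bases, GAAA) on either strand in Isg15, Trim34a and Trim30a, and a p53 half-site in Ccng1. In Isg15 3 matches overlap. The windows are chr4:156200769-156201068 on the minus strand for Isg15, chr7:104244207-104244506 on the plus strand for Trim34a, chr7:104465144-104465443 on the minus strand for Trim30a and chr11:40755237-40755536 on the minus strand for Ccng1.
Isg15: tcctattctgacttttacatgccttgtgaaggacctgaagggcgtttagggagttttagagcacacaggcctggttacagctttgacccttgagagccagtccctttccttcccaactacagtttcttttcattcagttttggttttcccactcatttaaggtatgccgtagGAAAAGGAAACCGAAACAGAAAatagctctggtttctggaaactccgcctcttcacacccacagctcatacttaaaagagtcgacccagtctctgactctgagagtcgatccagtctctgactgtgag
Trim34a: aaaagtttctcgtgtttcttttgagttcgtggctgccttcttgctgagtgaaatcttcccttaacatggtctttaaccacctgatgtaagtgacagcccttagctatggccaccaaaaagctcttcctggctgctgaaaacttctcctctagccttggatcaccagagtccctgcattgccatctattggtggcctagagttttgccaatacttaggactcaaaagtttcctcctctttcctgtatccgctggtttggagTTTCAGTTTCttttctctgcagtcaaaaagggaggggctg
Trim30a: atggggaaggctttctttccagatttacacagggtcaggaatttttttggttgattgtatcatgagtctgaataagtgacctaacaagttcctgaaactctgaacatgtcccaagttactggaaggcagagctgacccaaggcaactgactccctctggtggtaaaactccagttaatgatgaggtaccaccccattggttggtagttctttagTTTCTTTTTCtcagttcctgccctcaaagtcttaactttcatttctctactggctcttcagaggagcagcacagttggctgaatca
Ccng1: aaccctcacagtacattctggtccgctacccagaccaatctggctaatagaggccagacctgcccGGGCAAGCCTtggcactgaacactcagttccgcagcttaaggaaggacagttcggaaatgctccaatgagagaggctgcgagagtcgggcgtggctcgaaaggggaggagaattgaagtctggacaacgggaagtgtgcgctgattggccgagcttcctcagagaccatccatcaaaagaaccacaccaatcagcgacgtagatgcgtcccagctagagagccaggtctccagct

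The ISRE core was present in 3.06% of 12652 promoters of tested genes. It was present in 11.1% of 54 promoters of the higher genes and 1.43% of 70 promoters of the lower genes. Promoters were found for 7 of the 9 interferon members. Among these 9 promoters it was present in 44.4%, and Trim30a entered through more than 1 of them. A p53 half-site, searched on both strands by its usual degenerate consensus, was present in 6.82% of all promoters, 18.5% of those of the higher genes and 4.29% of those of the lower genes. The KLF-type motif GGGNGTGG was present in 23% of all promoters, 25.9% of those of the higher genes and 22.9% of those of the lower genes. These matches are a description of letters in the windows. RefSeq promoters matched 41 of 48 higher and 55 of 70 lower symbols, and a symbol could have several promoters. Windows of Aen overlapped and shared the same p53 half-site.

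Among the interferon-stimulated genes, Oasl2, an antiviral protein of the oligoadenylate synthetase family (chromosome 5, bases 114896936 to 114912234), had 34.9, 39.5, 37.4 and 36.7 CPM in Vehicle, 34.6, 36, 35.2 and 41.2 CPM in Scramble and 118, 71.4, 93.2 and 96.3 CPM in Klf4 siRNA. The lowest Klf4 siRNA sample lay above the highest of the other 8. The log2 fold change against Vehicle was 1.36 (SE 0.12), and that of Scramble was -0.01 (SE 0.07). Isg15 encodes a ubiquitin-like modifier (chromosome 4, bases 156199424 to 156200818). Its levels were 24.8, 18.2, 20 and 19.2 CPM in Vehicle, 17.1, 22.9, 21.3 and 24.3 CPM in Scramble and 37.7, 32.2, 37.1 and 38.7 CPM with the Klf4 siRNA. These are 4 high samples and 8 lower ones without overlap, and the log2 fold change was 0.84 (SE 0.10).

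Parp14, an ADP-ribosyltransferase (chromosome 16, bases 35832874 to 35871544), had 8.69, 9.57, 7.69 and 8.67 CPM in Vehicle, 6.39, 9.66, 7.67 and 7.99 CPM in Scramble and 19.6, 14, 13.9 and 23.2 CPM in Klf4 siRNA. Samples 1 and 4 were its highest, and the log2 fold change of 1.04 (SE 0.16) became 0.69 without them. Trim34a and Trim30a, of a cluster of tripartite motif genes on chromosome 7 whose reads could be shared among close paralogs, rose by 0.87 (SE 0.13) and 0.73 (SE 0.09) on the log2 scale. The remaining interferon members were Xaf1 at 0.68, Sp100 at 0.66 and Helz2 at 0.62 on the same scale. Psmb10, a catalytic subunit of the immunoproteasome (chromosome 8, bases 105935735 to 105938444), had 32.1, 29.3, 24.1 and 26.7 CPM in Vehicle, 30, 31.2, 34 and 31.1 CPM in Scramble and 52.5, 56.8, 53.9 and 50.6 CPM in Klf4 siRNA. Its 4 Klf4 siRNA samples were all above 50 CPM and all others at or below 34 CPM.

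The p53 targets were headed by Ccng1, cyclin G1 (chromosome 11, bases 40748552 to 40755311). It stood at 134, 108, 133 and 111 CPM in Vehicle, 112, 119, 114 and 116 CPM in Scramble and 342, 343, 313 and 354 CPM in Klf4 siRNA. That is a rise of 2.81-fold (log2 1.49, SE 0.08), with the Scramble samples inside the range of Vehicle. Aen, an apoptosis-enhancing nuclease, rose by 0.83 (SE 0.08) and Polk, a translesion DNA polymerase, by 0.80 (SE 0.07) on the log2 scale. Both had Klf4 siRNA samples that overlapped no other sample. The viral T antigen that immortalised the line is known to bind p53, and its activity was not measured here.

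Spp1, osteopontin, a secreted phosphoprotein of matrix and a cytokine (chromosome 5, bases 104435118 to 104441050), had 18, 14.3, 16.8 and 14.4 CPM in Vehicle, 16.1, 16.1, 17.7 and 13.4 CPM in Scramble and 100.1, 103, 69.8 and 78.8 CPM in Klf4 siRNA. The Klf4 siRNA samples fell into a pair near 100 CPM and a pair at 69.8 and 78.8 CPM, all far above the others, and the rise was 5.58-fold (log2 2.48, SE 0.12). Robo3, an axon guidance receptor of the Robo family (chromosome 9, bases 37415669 to 37433246), had 1.95, 1.3, 1.73 and 1.85 CPM in Vehicle, 1.53, 1.79, 1.83 and 1.59 CPM in Scramble and 10, 9.58, 9.6 and 10.1 CPM in Klf4 siRNA. It rose 5.8-fold, with the Klf4 siRNA samples within 1 CPM of each other, from counts below the floor used to choose the largest changes. Vgf, a neurosecretory granule protein and peptide precursor (chromosome 5, bases 137026392 to 137033351), stood at 12.7, 12.4, 11.5 and 11.6 CPM in Vehicle, 11, 11.6, 16.4 and 12 CPM in Scramble and 23.1, 41.2, 30.5 and 25.1 CPM in Klf4 siRNA. Its Klf4 siRNA samples were spread widely, with sample 2 the highest, and all lay above the other 8. The gene model 1700007K13Rik, which the naming rule left out and whose role is not known here, rose 3.42-fold. Fez1, an adaptor of axonal transport, rose by 1.42 (SE 0.12), and Cd80, a co-stimulatory surface protein, by 1.60 (SE 0.16) from 2.15 ± 0.479 CPM (SD, n = 4). Nid1, which links laminin and collagen in basement membranes, rose by 0.81 (SE 0.05), and Cd44, a hyaluronan receptor, by 0.62 (SE 0.08).

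**Figure D2:**
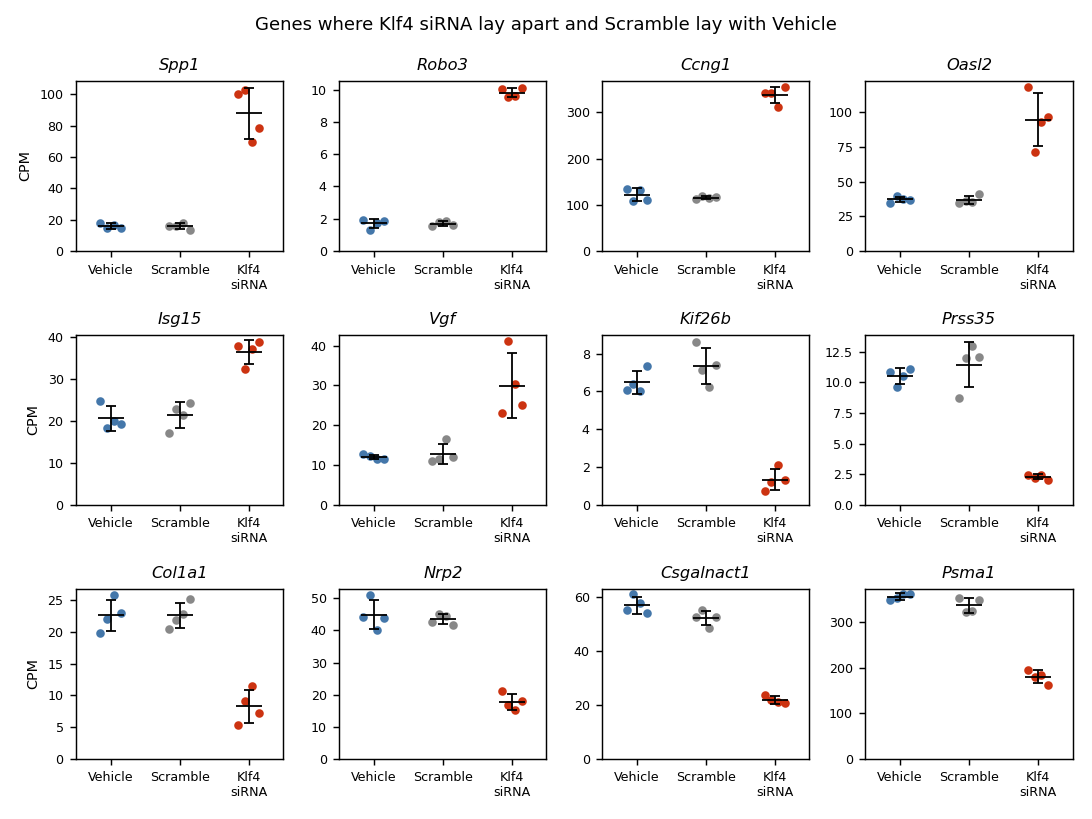
CPM of 12 of the 118 genes in each sample, with Vehicle in blue, Scramble in grey and Klf4 siRNA in red, and the mean with its SD (n = 4 per group) as bars. The vertical axes start at 0 and differ between genes. In each panel the 4 Klf4 siRNA samples lie outside the range of the other 8, from 69.8 CPM or more against 18 or less for Spp1 to 2.47 CPM or less against 8.74 or more for Prss35.

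The lower genes were led by Kif26b, a kinesin that acts in non-canonical Wnt signalling (chromosome 1, bases 178529125 to 178939200). It had 6.07, 6.41, 6.04 and 7.36 CPM in Vehicle, 8.59, 7.11, 6.26 and 7.39 CPM in Scramble and 0.733, 1.2, 2.09 and 1.33 CPM in Klf4 siRNA. The level was 0.21 of Vehicle (log2 fold change -2.25, SE 0.23), and Klf4 siRNA sample 3 was the highest of its group. An antisense gene overlaps Kif26b exons. Wnt5a, a ligand of that pathway, fell by 0.73 (SE 0.10, log2), and Fzd4, a Wnt receptor, by 0.81 (SE 0.05). Prss35, a secreted serine protease-like protein (chromosome 9, bases 86743649 to 86758443), stood at 10.9, 9.6, 10.5 and 11.1 CPM in Vehicle, 8.74, 12, 13 and 12.1 CPM in Scramble and 2.47, 2.22, 2.44 and 2.01 CPM in Klf4 siRNA. The Klf4 siRNA samples were within 0.5 CPM of each other and at 0.219 of Vehicle.

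Matrix genes with lower levels included Col1a1, an alpha chain of type I collagen (chromosome 11, bases 94936224 to 94953042). It had 19.8, 22.1, 25.7 and 22.9 CPM in Vehicle, 20.5, 21.8, 22.8 and 25.2 CPM in Scramble and 5.31, 9.11, 11.4 and 7.29 CPM in Klf4 siRNA. Its log2 fold change of -1.43 (SE 0.18) was -1.14 without Klf4 siRNA samples 1 and 4. Csgalnact1, an enzyme that starts chondroitin sulphate chains (chromosome 8, bases 68356781 to 68735146), had 54.9, 60.8, 57.5 and 53.8 CPM in Vehicle, 52.5, 54.9, 48.4 and 52.5 CPM in Scramble and 23.6, 21.8, 21.1 and 20.5 CPM in Klf4 siRNA. No Klf4 siRNA sample reached 24 CPM, and no other sample was under 48 CPM. Perlecan, Hspg2, fell by 0.82 (SE 0.12) and the basement membrane collagen Col4a1 by 0.59 (SE 0.10) on the log2 scale. Col4a1 was lowest in Klf4 siRNA sample 1, at 152 CPM against 214 to 222 CPM in the other 3, and its exons overlap Col4a2. Lrrc15, a leucine-rich repeat membrane protein, fell by 1.55 (SE 0.16), Clec18a, a secreted C-type lectin, went from 9.31 ± 1.27 to 4.12 ± 0.646 CPM (SD, n = 4), and Flna, filamin A, which crosslinks actin, by 0.65 (SE 0.07). Col1a1 and Pdgfrb (log2 fold change -0.91, SE 0.24) are also on the list of fibroblast and pericyte markers. The 6 tested markers of that list summed to 172 to 183 CPM in Vehicle, 123 to 132 CPM in Scramble and 97.4 to 110 CPM in Klf4 siRNA, and all 6 fell against Vehicle. The part of such cells in the matrix results was not tested. Pdgfrb had an adjusted p of 0.0619 in edgeR without Klf4 siRNA samples 1 and 4.

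Of the genes set apart that are on the axon guidance list, all but Robo3 were lower. Sema4f, a semaphorin gene that is not on the list, was set apart and rose by 0.63 (SE 0.11, log2). Nrp2, a co-receptor of semaphorins (chromosome 1, bases 62703285 to 62818695), had 44.1, 51.2, 40.3 and 43.8 CPM in Vehicle, 42.6, 45.1, 44.5 and 41.7 CPM in Scramble and 21.2, 16.6, 15.2 and 18 CPM in Klf4 siRNA. The groups did not overlap, and the level was 0.399 of Vehicle (log2 fold change -1.33, SE 0.10). Slit2, a repellent ligand of Robo receptors (chromosome 5, bases 47983138 to 48307733), stood at 97, 112, 118 and 109 CPM in Vehicle, 104, 136, 134 and 117 CPM in Scramble and 52.6, 58.5, 64.4 and 58.5 CPM in Klf4 siRNA. All Klf4 siRNA samples lay below the others, at 0.542 of Vehicle. The semaphorin receptor Plxna4 fell by 0.86 (SE 0.10) and the ephrin receptor Ephb1 by 0.88 (SE 0.18) on the log2 scale. Jag1, a Notch ligand (chromosome 2, bases 137081456 to 137116644), had 95.6, 112, 113 and 112 CPM in Vehicle, 100.4, 108, 112 and 88.5 CPM in Scramble and 53.9, 52.4, 54.9 and 58.2 CPM in Klf4 siRNA, and Vehicle sample 1 was its lowest Vehicle sample. Id1, a helix-loop-helix inhibitor induced by bone morphogenetic proteins, fell by 0.78 (SE 0.09).

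Among the other lower genes, Grik2, a kainate receptor subunit, fell by 1.43 (SE 0.13) from 9.82 ± 0.285 to 3.62 ± 0.593 CPM (SD, n = 4). Cacna2d1, the auxiliary subunit of voltage-gated calcium channels (chromosome 5, bases 15934691 to 16374511), had 20.4, 17.3, 24.6 and 19.3 CPM in Vehicle, 16.7, 19.1, 18.2 and 17.4 CPM in Scramble and 11, 11.9, 11 and 11.2 CPM in Klf4 siRNA. The Klf4 siRNA samples lay between 11 and 12 CPM, below all others. Slc24a2, a potassium-dependent sodium-calcium exchanger, fell by 1.24 (SE 0.13) and the sodium channel gene Scn8a by 0.67 (SE 0.09). The cyclic AMP phosphodiesterases Pde4b and Pde4d fell by 0.94 (SE 0.09) and 0.62 (SE 0.10), and Ptger4, a prostaglandin E receptor coupled to cyclic AMP, by 0.95 (SE 0.09). Exons of Ptger4 overlap Ttc33. Psma1, a subunit of the proteasome core (chromosome 7, bases 114264606 to 114276118), stood at 348, 353, 362 and 361 CPM in Vehicle, 353, 322, 325 and 348 CPM in Scramble and 196, 179.7, 185 and 162 CPM in Klf4 siRNA. On the deposited RPKM scale, which is per gene length, Psma1 had the highest Vehicle level of the 118 genes, 121 ± 2.35, and stood at 61.2 ± 4.73 with the siRNA (SD, n = 4). Flna followed at 102 ± 5.00 in Vehicle, and Ccng1 went from 34.5 ± 3.98 to 96.3 ± 5.02.

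The largest changes over the whole table are set beside the values of Scramble. Acta2, smooth muscle alpha actin (chromosome 19, bases 34241090 to 34255590), had 705, 700.5, 640.3 and 721 CPM in Vehicle, 31.4, 40.6, 37.3 and 38.8 CPM in Scramble and 38.3, 37.7, 30 and 28.6 CPM in Klf4 siRNA. Vehicle stood above both transfected groups without overlap, by log2 fold changes of -4.35 for Klf4 siRNA (SE 0.09, edgeR adjusted p = 4.27e-12) and -4.22 for Scramble (SE 0.07). Tagln, another actin-binding gene of smooth muscle, fell by 3.30 with the Klf4 siRNA (SE 0.09, edgeR adjusted p = 4.50e-11), with Scramble at -2.82. Mmp9, a matrix protease (chromosome 2, bases 164940780 to 164955850), had 0.906, 0.836, 0.719 and 1.13 CPM in Vehicle, 5.04, 5.59, 4.58 and 5.01 CPM in Scramble and 9.83, 14.2, 10.6 and 11.1 CPM in Klf4 siRNA. It rose by 3.66 (SE 0.17, edgeR adjusted p = 5.00e-09), with Scramble between the other groups at 2.48. Cdhr1, a cadherin-related gene, rose by 2.23 (SE 0.07, edgeR adjusted p = 2.00e-10) and Aldoc, a glycolytic aldolase, by 2.55 (SE 0.19, edgeR adjusted p = 3.22e-07). Scramble stood at 2.1 and 2.58 for them.

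For Nog, an antagonist of bone morphogenetic proteins (chromosome 11, bases 89300638 to 89302332), the transfected groups were less alike. It had 14.5, 12.4, 14.5 and 14.6 CPM in Vehicle, 5.36, 9.22, 9.31 and 8.36 CPM in Scramble and 1.95, 2.84, 2.59 and 2.43 CPM in Klf4 siRNA. The 3 groups formed steps without overlap, and the difference between Klf4 siRNA and Scramble was -1.70 on the log2 scale (SE 0.18, edgeR adjusted p = 1.60e-05). Dner, a Notch-like transmembrane protein of neurons (chromosome 1, bases 84369839 to 84696221), showed the same order, at 423, 448, 432 and 437 CPM in Vehicle, 142, 149, 139 and 148 CPM in Scramble and 82.8, 81.8, 78.1 and 73.7 CPM in Klf4 siRNA. Its change against Vehicle was -2.45 (SE 0.05, edgeR adjusted p = 3.75e-12), and against Scramble -0.86 (SE 0.05, edgeR adjusted p = 8.07e-08). Id3, a relative of Id1, fell by 2.01 against Vehicle (SE 0.16, edgeR adjusted p = 5.88e-07), with Scramble at -0.48.

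**Figure D3:**
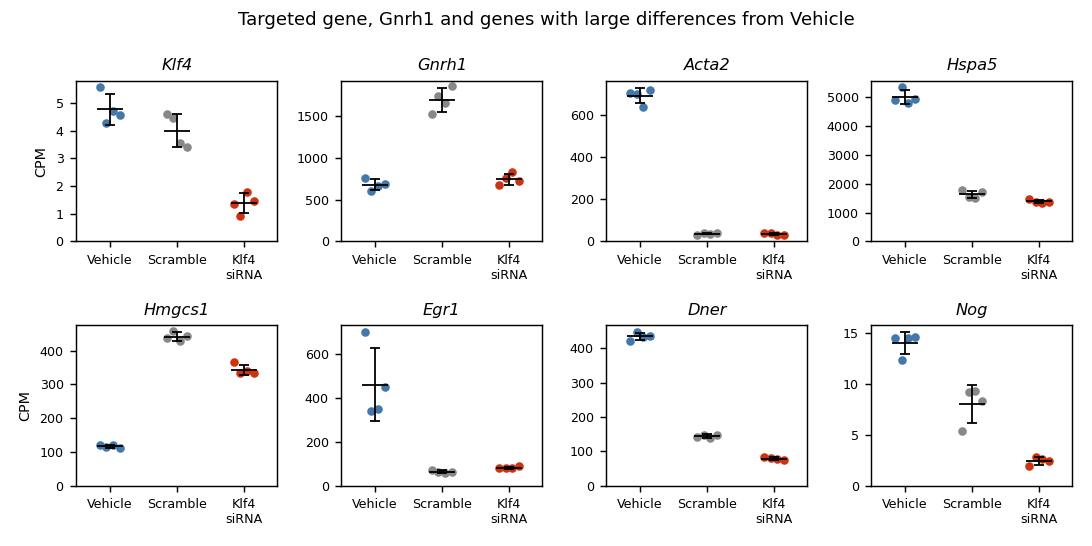
CPM per sample of Klf4, Gnrh1 and 6 genes with large differences from Vehicle, coloured by group, with mean and SD (n = 4) as bars and axes that start at 0. Acta2, Hspa5 and Egr1 are high in Vehicle alone and Hmgcs1 is low in Vehicle alone, Gnrh1 is high in Scramble alone, and Dner and Nog fall in steps from Vehicle through Scramble to Klf4 siRNA.

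Most interferon-stimulated and RNA-sensing genes were higher with the Klf4 siRNA. Of 69 tested members, 57 rose and 6 fell between Klf4 siRNA and Vehicle, with a median log2 fold change of 0.60, beside 24.1% up, 21.3% down and a median of 0.02 over all tested genes. Against the same Vehicle samples, Scramble had 13 of these members higher and 23 lower. Over all genes of that comparison, 27.2% were higher and 26.5% lower. The shares of both comparisons apply beside every list below. Summed over the list, levels were 2960 to 3180 CPM in Vehicle, 2590 to 2820 CPM in Scramble and 3780 to 4320 CPM in Klf4 siRNA. Rtp4, an interferon-induced transporter protein (chromosome 16, bases 23520291 to 23614222), had 18.4, 15.4, 17.1 and 18 CPM in Vehicle, 11.5, 13, 13.9 and 17.2 CPM in Scramble and 68.5, 44.1, 53.5 and 57.8 CPM in Klf4 siRNA. Its Klf4 siRNA samples were all above 44 CPM and the others all under 19 CPM, and the rise was 1.71 in log2 units (SE 0.11, edgeR adjusted p = 1.30e-07). Irf7, which amplifies interferon production, rose by 1.29 (SE 0.09, edgeR adjusted p = 1.90e-07) while Scramble lay at -0.32. Its exons overlap Phrf1. Stat2 rose by 1.14 (SE 0.08, edgeR adjusted p = 1.23e-07), and Scramble lay at 0.55. Oas2, Oas3 and Ifit1, antiviral effectors named after their values were seen, rose 7.24-fold, 4.29-fold and 2.86-fold. Ccl5, a chemokine, had 0.101, 0.0929, 0.396 and 0.319 CPM in Vehicle and 1.16, 2.01, 1.3 and 2.04 CPM in Klf4 siRNA, so it was read at very low levels. Irf1 was one of the 6 that fell (log2 fold change -0.90, SE 0.07, edgeR adjusted p = 6.42e-07), with Scramble at -0.98. The ISRE core was present in 45.8% of 59 promoters of the members that rose, beside 3.06% of all promoters. The list was chosen as interferon-stimulated genes, so this share describes the list. The share among members that did not rise was not counted.

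Genes of MHC class I and of the peptides it presents were higher at 13 of 19 members and lower at 1, with a median of 0.29. Without Vehicle sample 2, 2 were lower. Psmb9, another immunoproteasome subunit (chromosome 17, bases 34181987 to 34187764), had 94.6, 88.9, 80.4 and 92 CPM in Vehicle, 110.2, 115, 114 and 118 CPM in Scramble and 151, 151, 146 and 142 CPM in Klf4 siRNA. The groups formed 3 steps, and the change was 0.74 (SE 0.06, edgeR adjusted p = 5.21e-07). Its exons overlap Tap1. H2-K1, a class I heavy chain whose reads could be shared with its paralogs, rose by 0.36 (SE 0.04, edgeR adjusted p = 2.68e-05). Cd74, the class II invariant chain, rose by 1.88 (SE 0.13, edgeR adjusted p = 1.90e-07), and Scramble lay at 1.10.

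Targets of p53 were higher at 24 of 33 members and lower at 3, with a median of 0.51. Scramble had 7 higher and 12 lower. Mdm2, the ubiquitin ligase of p53 (chromosome 10, bases 117688875 to 117710758), stood at 171, 155, 182 and 157 CPM in Vehicle, 131, 125, 119.9 and 131 CPM in Scramble and 254, 259.7, 233 and 288 CPM in Klf4 siRNA. Cdkn1a, the cell cycle inhibitor p21, stood at 327, 270.2, 270.2 and 275 CPM in Vehicle, 227, 216, 214 and 233 CPM in Scramble and 418, 414, 404 and 428 CPM in Klf4 siRNA. In both genes the Scramble samples were the lowest of the 3 groups and the Klf4 siRNA samples the highest, without overlap. Log2 fold changes against Vehicle were 0.65 for Mdm2 (SE 0.07, edgeR adjusted p = 1.04e-05) and 0.55 for Cdkn1a (SE 0.06, edgeR adjusted p = 1.12e-05). Ddit4, an inhibitor of mTOR signalling that p53 and other stress factors induce, rose by 1.73 (SE 0.12, edgeR adjusted p = 1.68e-07), with Scramble at 1.43. Plk2 fell by 1.46 (SE 0.16, edgeR adjusted p = 1.03e-05). Mdm2, Cdkn1a and Plk2 were named after their values were seen.

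**Figure D4:**
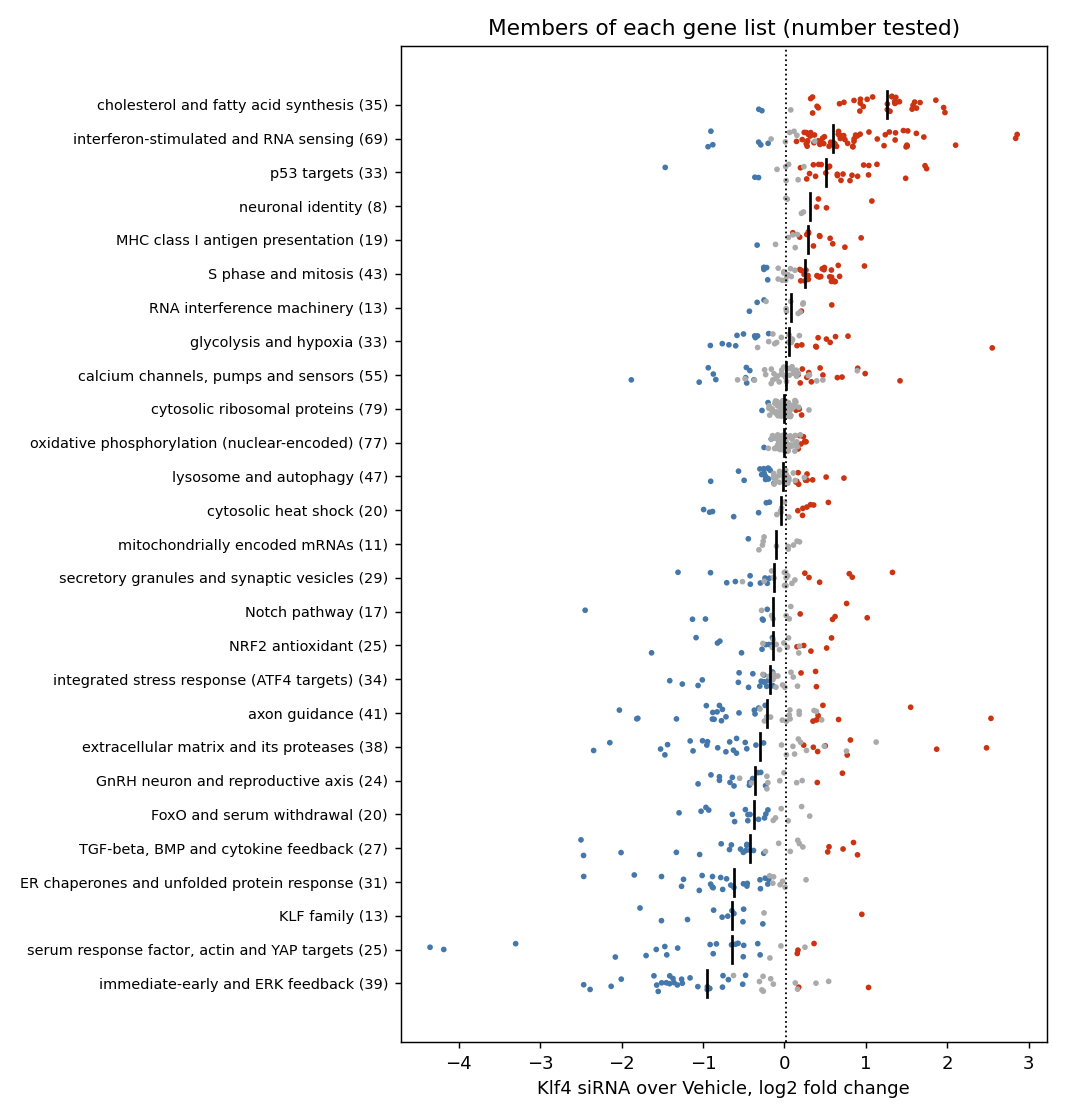
Log2 fold change of Klf4 siRNA over Vehicle for each member of 27 gene lists, with the number tested in brackets. Red points rose and blue points fell at an adjusted p under 0.05, grey points did not pass, black bars are list medians and the dotted line is the median of all tested genes, 0.02. Medians run from 1.26 for cholesterol and fatty acid synthesis to -0.95 for immediate-early genes.

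Cholesterol and fatty acid synthesis showed the highest list median. These genes are switched on by the SREBP factors when membrane sterol is low. Of 35 tested members, 32 rose and 2 fell, with a median of 1.26, and in Scramble 31 rose and 2 fell. Summed levels were 3460 to 3740 CPM in Vehicle, 9020 to 9320 CPM in Scramble and 7500 to 8070 CPM in Klf4 siRNA. Hmgcs1, an early enzyme of the pathway (chromosome 13, bases 119690379 to 119708260), had 119.5, 116, 120.4 and 111 CPM in Vehicle, 436, 457, 428 and 444 CPM in Scramble and 366, 334, 340.2 and 333 CPM in Klf4 siRNA. Vehicle was lowest and Scramble highest, without overlap. Hmgcs1 rose 2.96-fold against Vehicle (SE 0.05 on the log2 scale, edgeR adjusted p = 1.15e-10) and stood at -0.36 against Scramble (SE 0.04, edgeR adjusted p = 2.13e-05). Cyp51, a later enzyme whose exons overlap Akap9, rose by 1.86 (SE 0.05, edgeR adjusted p = 2.64e-11). Insig1, which retains the SREBP complex in the endoplasmic reticulum, rose by 1.95 (SE 0.06, edgeR adjusted p = 1.15e-10), with Scramble at 1.92. The 2 that fell were Insig2 (log2 fold change -0.28) and Srebf1 (-0.32), named for that reason. Without Klf4 siRNA samples 1 and 4, 1 of them fell, and Srebf1 was at -0.20 with an edgeR adjusted p of 0.0512.

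Chaperones of the endoplasmic reticulum and other genes of the unfolded protein response were lower at 24 of 31 members and higher at none, with a median of -0.62. Without Klf4 siRNA sample 1, 1 member was higher. At an unadjusted edgeR p under 0.05 none was higher and 25 were lower, and the DESeq2 Wald test called 0 higher and 25 lower. In Scramble, 24 fell. The summed level was 17600 to 18400 CPM in Vehicle, 10400 to 10900 CPM in Scramble and 9460 to 10200 CPM in Klf4 siRNA. Hspa5, the chaperone BiP (chromosome 2, bases 34771970 to 34777547), had 4886, 5355, 4809.8 and 4949.8 CPM in Vehicle, 1781, 1539.5, 1501 and 1694 CPM in Scramble and 1469, 1370.3, 1325 and 1365 CPM in Klf4 siRNA. Vehicle lay far above both, and Klf4 siRNA was at 0.279 of Vehicle (log2 fold change -1.84, SE 0.05, edgeR adjusted p = 1.96e-11). Xbp1, a transcription factor of the response, fell by 1.51 (SE 0.05, edgeR adjusted p = 1.67e-10), Calr, a calcium-binding chaperone, by 1.01 (SE 0.04, edgeR adjusted p = 6.25e-10), and Derl3, a factor of protein disposal, by 2.46 (SE 0.13, edgeR adjusted p = 1.63e-08). Among targets of ATF4, 19 of 34 fell and 3 rose, and in Scramble 27 fell and 1 rose. Atf3 fell from 187 ± 12.7 to 69.8 ± 9.32 CPM (SD, n = 4), with Scramble at 35.3 ± 1.73 CPM. Ppp1r15a, which reverses the block on translation, fell by 1.25 (SE 0.05, edgeR adjusted p = 6.87e-10), with Scramble at -2.11.

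Immediate-early genes and feedback inhibitors of ERK signalling, which respond within minutes to growth factors and depolarisation, were lower at 26 of 39 members, with a median of -0.95. Of these 39, 2 were higher, and 1 without Klf4 siRNA sample 1, Klf4 siRNA sample 4 or Vehicle sample 4. In Scramble, 30 of the 39 fell and 1 rose. Egr1, a zinc finger factor of this class (chromosome 18, bases 34859823 to 34864984), had 697, 338, 351 and 451 CPM in Vehicle, 72.3, 62.3, 56.8 and 63.5 CPM in Scramble and 79.4, 79.4, 81.8 and 89.2 CPM in Klf4 siRNA. Vehicle sample 1 was the highest and the Vehicle samples were spread widely, yet all lay above all transfected samples. The change was -2.46 (SE 0.19, edgeR adjusted p = 3.90e-07). Fos, with 159, 69.6, 71.5 and 107 CPM in Vehicle and 25.1, 21.6, 22.3 and 23.2 CPM in Klf4 siRNA, had the same high first Vehicle sample and fell by 2.13 (SE 0.22, edgeR adjusted p = 5.63e-06), or by 1.83 without it. Spry1, an inhibitor of ERK signalling, went from 10.6 ± 1.11 to 2.0 ± 0.173 CPM (SD, n = 4), with Scramble at 2.57 ± 0.525 CPM. Myc fell by 1.60 (SE 0.08, edgeR adjusted p = 1.44e-08), with Scramble lower still at -2.84. Among targets of serum response factor, actin genes and YAP targets, 19 of 25 fell, including Fhl1 by 2.08 (SE 0.04, edgeR adjusted p = 1.16e-12) and tropomyosin Tpm1 by 1.31 (SE 0.06, edgeR adjusted p = 1.73e-09). The number that rose was 3, and 1 without Klf4 siRNA sample 2 or 3 or Vehicle sample 3. In Scramble, 16 of the 25 fell and 5 rose. Socs3, an inhibitor of cytokine signalling, had 172, 93.2, 77.7 and 128 CPM in Vehicle, 15.9, 10.2, 15.8 and 15.7 CPM in Scramble and 17, 26.4, 20.6 and 20.4 CPM in Klf4 siRNA, and both transfected groups lay below all Vehicle samples.

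Of the 13 tested members of the KLF family, 11 were lower with the Klf4 siRNA and 1 was higher, with a median of -0.64. In Scramble, 9 were lower and 1 higher. Klf2 (chromosome 8, bases 72319033 to 72321656) had 35.5, 32.1, 38.4 and 32.9 CPM in Vehicle, 6.96, 8.61, 9.57 and 7.37 CPM in Scramble and 10.1, 13.9, 13 and 11.4 CPM in Klf4 siRNA. Vehicle was the high group, and the change was -1.51 (SE 0.10, edgeR adjusted p = 1.53e-07). Klf5 fell by 1.19 (SE 0.08, edgeR adjusted p = 1.33e-07), Klf10 by 0.62 (SE 0.05, edgeR adjusted p = 1.13e-06) and Klf11 by 0.87 (SE 0.06, edgeR adjusted p = 1.27e-07). Scramble stood at -0.91, -1.12 and -1.07 for these. Among the 4, the mean was lowest in Klf4 siRNA for Klf5 and in Scramble for the others, and the transfected groups overlapped for Klf11.

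Gnrh1 (chromosome 14, bases 67745181 to 67749439) had 755, 601, 661 and 689 CPM in Vehicle, 1521, 1732, 1647 and 1852 CPM in Scramble and 669.6, 763, 825 and 719.8 CPM in Klf4 siRNA. Klf4 siRNA and Vehicle overlapped, and every Scramble sample was at least 1500 CPM. The change of Klf4 siRNA against Vehicle was 0.15 (SE 0.07, edgeR adjusted p = 0.117), which did not pass. Without Vehicle sample 1 it was 0.21 with an edgeR adjusted p of 0.0346, and without Klf4 siRNA samples 1 and 4 it was 0.23 with an edgeR adjusted p of 0.0415. Kiss1r, the receptor of kisspeptin, which excites GnRH neurons, rose by 0.71 (SE 0.19, edgeR adjusted p = 0.00725), with Scramble at 1.0. Kiss1r exons overlap R3hdm4. Of 24 tested genes of GnRH neurons and the reproductive axis, 13 fell and 2 rose, beside 21.3% and 24.1% of all tested genes. The list median was -0.36. Scramble had 6 lower and 6 higher, near the 26.5% and 27.2% of all genes tested in that comparison. Six6, a homeobox factor of these neurons (chromosome 12, bases 72939892 to 72944899), stood at 230.3, 219, 223 and 220.3 CPM in Vehicle, 186, 207, 201 and 207 CPM in Scramble and 139, 147, 151 and 139 CPM in Klf4 siRNA. No Klf4 siRNA sample overlapped another group, and the change was -0.62 (SE 0.05, edgeR adjusted p = 5.58e-07). Otx2, a factor that binds the GnRH gene, fell by 0.43 (SE 0.06, edgeR adjusted p = 5.91e-05), and the semaphorin receptor Nrp1, needed for GnRH neuron migration in mice, by 0.80 (SE 0.06, edgeR adjusted p = 3.22e-07). The 4 tested neuronal genes that rose of 8 included Tubb3, neuronal tubulin, at 1.07 (SE 0.08, edgeR adjusted p = 3.22e-07), with Scramble at 1.09.

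Over all 41 tested axon guidance genes, 18 fell and 8 rose, with a median of -0.22, beside 21.3% and 24.1% of all tested genes. In Scramble 21 rose and 6 fell, beside 27.2% and 26.5%. The number that rose with the Klf4 siRNA was 4 without Klf4 siRNA sample 4 and 5 without Vehicle sample 2. Slit3 (chromosome 11, bases 35121224 to 35708507) had 39.8, 53.1, 54.3 and 53.2 CPM in Vehicle, 23.1, 23, 22.5 and 20.8 CPM in Scramble and 10.5, 13.5, 12.2 and 12.6 CPM in Klf4 siRNA, and the 3 groups formed steps. Its change against Vehicle was -2.03 (SE 0.11, edgeR adjusted p = 1.71e-08). Beside 21.3% lower and 24.1% higher of all tested genes, 20 of 38 matrix genes and their proteases fell and 8 rose, with a median of -0.30. Their summed level was 9830 to 10600 CPM in Vehicle, 9720 to 10100 CPM in Scramble and 6790 to 7430 CPM in Klf4 siRNA. Serpinf1, a secreted anti-angiogenic factor, fell by 2.34 (SE 0.06, edgeR adjusted p = 2.51e-11), Tnc, tenascin C, by 2.14 (SE 0.07, edgeR adjusted p = 2.06e-10) and Sparc, a collagen chaperone of the matrix, by 0.72 (SE 0.04, edgeR adjusted p = 3.66e-08). Scramble lay at -1.95, -1.0 and -0.40. Kdr, a vascular growth factor receptor on the endothelial list, had 53.8, 54.2, 47.8 and 54.5 CPM in Vehicle, 33.3, 40.3, 41.7 and 36.5 CPM in Scramble and 18, 17.4, 19.3 and 14.8 CPM in Klf4 siRNA, and the 2 tested endothelial markers, Kdr and Tek, summed to 47.9 to 54.7 CPM in Vehicle and 15.5 to 20.6 CPM in Klf4 siRNA, while Tek alone rose from a mean of 0.110 to 0.823 CPM. Their part in the matrix result was not tested.

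Among 55 calcium channels, pumps and sensors, 13 rose, 10 fell and 32 did not pass, with a median of 0.01. These shares are near the 24.1% higher and 21.3% lower of all tested genes. Without Vehicle sample 4, 8 rose, as many as without Klf4 siRNA samples 1 and 4. Rcan2, an inhibitor of calcineurin (chromosome 17, bases 43801351 to 44039516), had 137, 149, 133 and 150.1 CPM in Vehicle, 41.2, 49.3, 53 and 45.4 CPM in Scramble and 38, 40.3, 35.2 and 40.1 CPM in Klf4 siRNA. Vehicle was the high group, and the change was -1.88 (SE 0.06, edgeR adjusted p = 2.13e-10). Atp2a2, the calcium pump of the endoplasmic reticulum, stood at -0.46 (SE 0.06, edgeR adjusted p = 7.41e-05) and Stim1, a calcium sensor of that store, at -0.37 (SE 0.07, edgeR adjusted p = 8.93e-04). Calm3, a calmodulin gene, rose by 0.65 (SE 0.07, edgeR adjusted p = 5.27e-06), with Scramble at 0.78. Of 29 genes of secretory granules and synaptic vesicles, 6 rose and 10 fell, beside 24.1% and 21.3% of all tested genes. Pam, which amidates peptide hormones, fell by 0.60 (SE 0.06, edgeR adjusted p = 3.83e-06).

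Ribosomal and mitochondrial genes lay close to Vehicle with the Klf4 siRNA. Among 79 genes for proteins of the cytosolic ribosome, 3 were higher, 3 were lower and 73 missed the threshold, with a median of -0.004, while Scramble had 75 lower, and Klf4 siRNA had 74 higher than Scramble. The 3 comparisons are not independent, since each group enters 2 of them. Their sum was 8450 to 10400 CPM in Vehicle, 6190 to 7490 CPM in Scramble and 8390 to 10100 CPM in Klf4 siRNA, and Klf4 siRNA overlapped Vehicle but not Scramble. The count that rose was 1 without Klf4 siRNA sample 2 or 3 or Vehicle sample 2 or 3, and 6 without Vehicle sample 1. The count that fell was 5 without Klf4 siRNA sample 2, 7 without Vehicle sample 2, and 1 without Vehicle sample 1 or 4. Rpl8 (chromosome 15, bases 76904078 to 76906314) had 170.5, 156, 152 and 160.0 CPM in Vehicle, 131, 136, 144 and 141 CPM in Scramble and 182, 185, 176 and 176 CPM in Klf4 siRNA, a rise of 0.18 (SE 0.05, edgeR adjusted p = 0.00975). Reads of these genes could be shared with their many pseudogenes. Of 77 nuclear genes of oxidative phosphorylation, 7 rose and 2 fell, and in Scramble 1 rose and 33 fell. Without 1 library at a time, 3 to 4 rose when Klf4 siRNA sample 2, 3 or 4 or Vehicle sample 2, 3 or 4 was left out, and 1 fell without Klf4 siRNA sample 1 or 4 or Vehicle sample 1, 3 or 4, while 7 fell without Vehicle sample 2.

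Cell cycle genes were higher on balance, with 26 of 43 up, 5 down and a median of 0.25, and Scramble had 36 up and 3 down. Bub1, a kinase of the spindle checkpoint (chromosome 2, bases 127801122 to 127831865), stood at 53.9, 65.4, 60.4 and 54.9 CPM in Vehicle, 107, 119.6, 110.2 and 118 CPM in Scramble and 128, 109, 104 and 119 CPM in Klf4 siRNA, a rise of 0.98 (SE 0.08, edgeR adjusted p = 6.42e-07). Aurka, a mitotic kinase, rose by 0.68 (SE 0.04, edgeR adjusted p = 9.72e-08). Among those that fell were Pcna (log2 fold change -0.25, SE 0.05) and Mcm7 (-0.25, SE 0.05), genes of DNA replication named after their values were seen. In the antioxidant programme of NRF2, 10 of 25 fell and 5 rose, beside 21.3% and 24.1% of all tested genes. Scramble had 17 of these 25 lower and 4 higher. Hmox1, haem oxygenase (chromosome 8, bases 75093621 to 75100589), had 529.7, 523, 485 and 458 CPM in Vehicle, 148, 109, 105 and 117 CPM in Scramble and 251, 246, 202 and 235 CPM in Klf4 siRNA. Vehicle was highest and Scramble lowest, and the change against Vehicle was -1.08 (SE 0.07, edgeR adjusted p = 7.22e-08). Ftl1, ferritin light chain, whose reads could be shared with pseudogenes, had 2483, 2249.6, 2294 and 2333 CPM in Vehicle, 1841, 1633, 1736 and 1902 CPM in Scramble and 3268, 3754, 3475 and 3362 CPM in Klf4 siRNA. Here Klf4 siRNA was the highest group, at 0.58 against Vehicle (SE 0.05, edgeR adjusted p = 1.10e-06), and Scramble lay below Vehicle at -0.40.

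Of 20 FoxO targets and genes of serum withdrawal, 14 fell and none rose, with a median of -0.37, and 1 rose without Klf4 siRNA sample 1 or Vehicle sample 3. At an unadjusted edgeR p under 0.05 1 member was higher, Tob1, and 15 were lower, and the DESeq2 Wald test called 0 higher and 15 lower. Against the same Vehicle samples, Scramble had 11 of these 20 lower and 3 higher. Irs2, an adaptor of the insulin receptor, fell by 1.29 (SE 0.11, edgeR adjusted p = 1.33e-06), and Cited2, a transcriptional co-regulator, by 1.02 (SE 0.13, edgeR adjusted p = 4.76e-05). Of 47 genes of the lysosome and autophagy, 10 rose and 15 fell, beside 24.1% and 21.3% of all tested genes. Scramble had 36 of the 47 lower and 2 higher, beside 26.5% and 27.2% of all genes tested in that comparison. The lysosome and autophagy list summed to 18600 to 18900 CPM in Vehicle, 13100 to 13500 CPM in Scramble and 18200 to 18900 CPM in Klf4 siRNA. Klf4 siRNA thus overlapped Vehicle and Scramble did not. In the Notch list of 17 genes, 5 rose and 6 fell, beside the same 24.1% and 21.3% of all tested genes. The count that rose was 3 without Klf4 siRNA sample 2 or 3 or Vehicle sample 4, and 2 without Vehicle sample 3. Without Klf4 siRNA sample 2, 3 fell. Hey1, a Notch target (chromosome 3, bases 8663359 to 8667256), had 18, 16.3, 13.5 and 16.8 CPM in Vehicle, 74.2, 79.9, 80 and 73.8 CPM in Scramble and 27, 22.2, 27.4 and 21.9 CPM in Klf4 siRNA. Scramble stood apart from both, and Klf4 siRNA was above Vehicle by 0.62 (SE 0.11, edgeR adjusted p = 4.28e-04). In the RNA interference machinery, 2 of 13 rose, 3 fell and 8 did not pass, which is near the 24.1% and 21.3% of all tested genes, and 1 rose without Vehicle sample 3 or 4. Dgcr8, which helps to cut microRNA precursors, fell by 0.43 (SE 0.07, edgeR adjusted p = 2.66e-04), with Scramble at -0.35, and its exons overlap Trmt2a.

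Over the remaining lists, the shares of all tested genes were 24.1% higher and 21.3% lower. Of 27 genes of TGF-beta, bone morphogenetic protein and cytokine signalling, 16 fell and 5 rose, with a median of -0.42. For these 27, Scramble had 11 lower and 5 higher. Of 33 glycolysis and hypoxia genes, 10 rose and 10 fell, among them the glucose transporter Slc2a1 at -0.91 (SE 0.06, edgeR adjusted p = 8.39e-08). Cytosolic heat shock genes had 7 rises and 7 falls among 20, with the small heat shock protein Cryab, whose exons overlap Hspb2, at -0.99 (SE 0.06, edgeR adjusted p = 8.57e-08). Of 11 genes of the mitochondrial genome, 1 fell, mt-Co2 (log2 fold change -0.44, edgeR adjusted p = 0.0382), and none rose. Leaving out Klf4 siRNA sample 1, 3 or 4, samples 1 and 4 together or Vehicle sample 1 left no call. Leaving out Vehicle sample 2 gave 2 falls in other genes, with mt-Co2 at an edgeR adjusted p of 0.0799. At an unadjusted edgeR p under 0.05 none rose and 1 fell, and the DESeq2 Wald test gave 0 and 1. Of the other marker lists, 2 of 3 astrocyte markers rose, 1 of 4 oligodendrocyte lineage markers rose and 2 fell, and of 3 microglia markers 1 rose and 1 fell. Summed astrocyte markers were 79.3 to 89.4 CPM in Vehicle, 68.5 to 75.4 CPM in Scramble and 93.9 to 114 CPM in Klf4 siRNA. Of the 2 that rose, Aldoc is also on the glycolysis list and was higher in Scramble too.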

How the data were processed

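RNA was taken with Trizol and made into libraries with the SMART-Seq v4 chemistry, which does not mark strand, per the labels' protocols. FastQC, STAR, STAR-Fusion, Subread and edgeR and the mm10 build are named in the submitters' processing notes, without versions. For each comparison, the authors deposited raw counts per gene for each sample, RPKM values, log2 fold changes and p-values with false discovery rates. The deposited raw counts were used for all tests, the deposited RPKM values only for levels per gene length, and the authors' deposited calls only for 1 count. Counts of the Klf4 siRNA samples were identical in both tables that hold them. Gene positions came from the mm10 annotation GENCODE M21, matched by gene ID for 12692 of 12701 genes, and promoter sequences from RefSeq's GRCm38.p6 table.

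The test was edgeR 4.0.16 under R 4.3.3 (filterByExpr, TMM scaling, quasi-likelihood test, Benjamini-Hochberg adjustment), with the 8 samples of a comparison in each fit. Standard errors are the fold change over the root of the F statistic. CPM values were scaled with TMM over the 12 samples, and SDs are over the 4 samples of a group. Intervals cover counting error and the spread between samples only. The statistics were tested on simulated counts. DESeq2 1.42.0, its size factors, no filter, a fit over 12 samples, a trend for GC content and length, a replicate block and leaving out libraries were tried as alternatives.

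Genes named were Klf4, the largest 10 changes each way of the genes set apart and the largest 8 each way overall. Up to 4 called members of each list, by p, were added. The largest changes had log2 CPM averaging 2 or more, apart from gene models, clones and pseudogenes (such as Gm10800 and 1700007K13Rik). List members, such as Robo3, had no such floor. Part of the genes named by this rule is described. Others, such as Sema4f, Wnt5a, Fzd4, Pde4b, Pde4d, Scn8a, Ptger4, Cd44 and Cd80, were chosen after their values were seen. All gene lists and the rule for the genes set apart were chosen with earlier results of these data known. Exon overlaps are named because such reads cannot be assigned by strand. A few genes are not reported here.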

Additional observations from a re-analysis of the deposited data

Results flagged for a closer look

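In 17 of 456 groups of 4 samples, 1 sample lay far from the other 3 by Dixon's gap ratio, which chance does in about 1 in 20 groups. Vehicle sample 1 was low for Jag1 (95.6 CPM, others 112 to 113) and Slit3 (39.8 CPM, others 53.1 to 54.3). It was high for Cdkn1a (327 CPM, others 270.0 to 275), Irf7 (21 CPM, others 18.8 to 19.2) and Hes1 (10.4 CPM, others 6.56 to 7.01). Vehicle sample 2 was low for Nog (12.4 CPM, others 14.5 to 14.6) and Pcna (205 CPM, others 231 to 236). Vehicle sample 3 was low for Kdr (47.8 CPM, others 53.8 to 54.5) and H2-K1 (1260 CPM, others 1340 to 1350) and high for Stim1 (73.0 CPM, others 62.6 to 63.9).

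Among the Klf4 siRNA samples, sample 1 was low for Col4a1 (152 CPM, others 214 to 222), sample 3 was low for Klf11 (83.6 CPM, others 96.6 to 97.5) and Clec18a (3.15 CPM, others 4.37 to 4.49), and sample 4 was low for Sparc (1620 CPM, others 1790 to 1800). Scramble sample 2 was low for Socs3 (10.2 CPM, others 15.7 to 15.9). Scramble sample 4 was high for Irf7 (16.7 CPM, others 15.1 to 15.3) and Sp100 (19.6 CPM, others 17.0 to 17.3).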

How the results depend on the processing

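Klf4 kept its direction and its call under every alternative run, from -1.93 to -1.62 on the log2 scale when 1 library was left out. Of 2789 values of 185 other named genes under alternatives, 2762 kept direction and call, 25 lost the call, 2 gained it (both Gnrh1) and 0 reversed. Leaving out 1 library gave 2581 to 2904 higher and 2318 to 2882 lower genes against Vehicle, 3111 to 3397 and 2802 to 3303 for Scramble against Vehicle, 1873 to 2344 and 1658 to 2290 for Klf4 siRNA against Scramble, and 42 to 53 higher and 58 to 74 lower genes set apart. A fold of at least 2 left 334 higher and 334 lower genes, and 10 and 15 genes set apart. A band of 0.3 gave 23 and 33 genes set apart, and the band alone, without the call of Scramble, 77 and 118. DESeq2's size factors shifted the calls to 2840 higher and 2888 lower, and the DESeq2 Wald test gave 2956 and 2975. Removing the trend with GC content and length gave 3337 and 2945, with 88 of the 118 genes set apart still in the set. Counts of list members moved by over 1.5 times in 65 of 960 cases, mostly small counts. With a replicate block the calls were 3118 higher and 2850 lower, 54 and 68 genes were set apart and Klf4 stood at -1.79. Of the named genes, mt-Co2 lost its call under the block (log2 fold change -0.44, edgeR adjusted p = 0.0581), and the others kept theirs. Deviations of same-numbered Klf4 siRNA and Vehicle samples had correlations of 0.24, 0.086, 0.13 and -0.047, and 1 of the 4 correlated best with its own number. Whether same-numbered samples shared a culture or day is not stated, and 4 correlations cannot settle it. Low counts limit the precision for Klf4, Robo3, Pdgfrb, Mmp9, Tek and Ccl5.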
